A study of Mus musculus with 2 samples.

Results

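The miRNAs described here are those for which blood cells, endothelium and the response to low oxygen are best known, namely miR-144, miR-451, miR-486, miR-142, miR-223, miR-150, miR-126 and miR-210. They were chosen by name, as every deposited entry with any of these 8 stems, which gave 12 of the 831 entries. The microvesicles (MVs) came from the supernatant of bone marrow mesenchymal stem cells (MSCs) of C57BL/6 mice, passaged as adherent cultures and grown for 48 h in medium with 10% fetal bovine serum. EPO-MVs came from MSCs given erythropoietin (EPO), the hormone that drives red cell formation, and MSC-MVs came from MSCs without it. Neither the sample title nor the array methods state the dose. It is taken here as 100 IU/ml, because the paper names 100 IU as its optimum, though per number of cells. Each of the groups was measured on 1 miRCURY LNA array, so no value has a replicate error and no test was run. What EPO did and what the array did cannot be told apart. The methods describe vesicles isolated from pooled medium of successive collections. An array thus stands for combined collections, and the number of cultures behind them is not given in the sources used here. The serum, which carries vesicles of its own, was part of both cultures.

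A miRNA is cut from a hairpin precursor, and either strand of the hairpin, called the -5p or the -3p arm, can be loaded into an Argonaute protein. Bases 2 to 8 of the mature miRNA, the seed, pair with target mRNAs. The miR-144 and miR-451a hairpins are made from a common transcript that the erythroid factor GATA1 turns on, and miR-451a is matured by Argonaute 2 without Dicer. Further, miR-142 is made in nearly all blood lineages, miR-223 in myeloid cells and miR-150 in mature lymphocytes, while miR-126 belongs to endothelium and miR-210 is induced by hypoxia-inducible factors, which also turn on the gene for EPO.

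The mature sequences of 9 of the 12 entries were found in RefSeq (GRCm38.p6). They are shown because the seed separates them, and the seed is in capitals.
miR-144-3p: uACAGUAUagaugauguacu
miR-451a: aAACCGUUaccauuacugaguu
miR-142-3p: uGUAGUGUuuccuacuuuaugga
miR-142-5p: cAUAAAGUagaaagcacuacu
miR-223-3p: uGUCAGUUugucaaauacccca
miR-223-5p: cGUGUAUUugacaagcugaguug
miR-126a-3p: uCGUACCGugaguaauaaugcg
miR-210-3p: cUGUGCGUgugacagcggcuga
miR-210-5p: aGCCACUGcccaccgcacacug
The array names miR-142-3p and miR-142-5p what RefSeq calls miR-142a-3p and miR-142a-5p. The 9 seeds were all different, and none was shared with another of the 682 entries for which RefSeq gave a mature sequence. Only the whole seed was compared and no target sites were searched, so whether these miRNAs share targets was not tested. The other entries were miR-126a-5p, miR-150-5p and a joint entry of miR-486-5p and miR-3107-5p, which cannot be separated here.

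The genes of these miRNAs lie on 5 mouse chromosomes (GRCm38.p6). The mature miR-144-3p (chr11:78073047-78073066) and miR-451a (chr11:78073186-78073207) are on the plus strand, with 99 bases between their hairpins. The arms of miR-142 (chr11:87756867-87756887 and chr11:87756903-87756925) are on the same strand of this chromosome. The arms of miR-223 (chrX:96242842-96242864 and chrX:96242884-96242905, plus strand) lie within the long non-coding RNA gene F630028O10Rik. The position of miR-126a-3p (chr2:26591402-26591423, plus strand) is within the span of Egfl7, a gene of endothelial cells. The arms of miR-210 (chr7:141221407-141221428 for -3p and chr7:141221445-141221466 for -5p, minus strand) overlap no other annotated gene. Mir150 is on chromosome 7 as well, and Mir486 and Mir3107 overlap each other within Ank1, a red cell membrane skeleton gene, on chromosome 8. The array gives the mature miRNA and not the gene, so where a transcript was made cannot be read from it.

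The following hairpins show how the entries arise from their precursors, with the mature miRNAs in capitals.
Mir451a (chr11:78073170-78073241, plus strand): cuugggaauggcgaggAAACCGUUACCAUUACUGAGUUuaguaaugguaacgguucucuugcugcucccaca
Mir142 (chr11:87756864-87756927, plus strand): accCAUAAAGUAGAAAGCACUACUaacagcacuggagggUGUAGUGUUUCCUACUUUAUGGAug
Mir223 (chrX:96242817-96242926, plus strand): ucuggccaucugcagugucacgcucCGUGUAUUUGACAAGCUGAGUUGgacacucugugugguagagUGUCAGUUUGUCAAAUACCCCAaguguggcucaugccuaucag
In Mir451a the mature miRNA runs from base 17 to base 38 of 72 and passes through the loop, whereas Mir142 and Mir223 each give a separate miRNA from either side of the loop.

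All values are normalized intensities of a linear scale without a unit, and a ratio is the EPO-MV value divided by the MSC-MV value. On each array the values came in whole steps of the size of its lowest value, and an intensity of 1 stood for 471 steps on the EPO-MV array and 447 steps on that of MSC-MVs. Probes bind with different strength, so an intensity is compared only between the arrays and not between miRNAs. A miRNA was called higher or lower in EPO-MVs from a 1.5-fold difference onwards. The methods describe a filter on fold change, and the abstract and results of the paper give this threshold.

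At this threshold 1 of the 12 entries was higher in EPO-MVs, 3 were lower and 8 stayed within 1.5-fold. The higher entry was miR-144-3p, and the lower ones were both arms of miR-126a and miR-223-3p. Over all 831 entries 17.8% were higher, 7.58% were lower and 25.4% passed in either direction. With 12 entries, the count of 4 past the threshold is near the 25.4% of all entries as deposited, a share that fell with the pseudocount and with filters on dim entries. The split of all entries moved with the scaling, to 11.4% higher and 11.4% lower with quantile normalization and 11.1% and 11.6% after removal of a lowess curve, a smooth trend of ratio on intensity, and among entries of at least 60 steps on both arrays it was 3.24% and 5.4%. The median log2 ratio was -0.15 for the 12 entries and 0.05 for all entries, and 9 of the 12 (75%) were below a ratio of 1 against 43.9% of all entries. This gap narrowed to 7 of 12 (58.3%) against 48.5% with quantile normalization and against 49.6% with lowess.

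**Figure D1:**
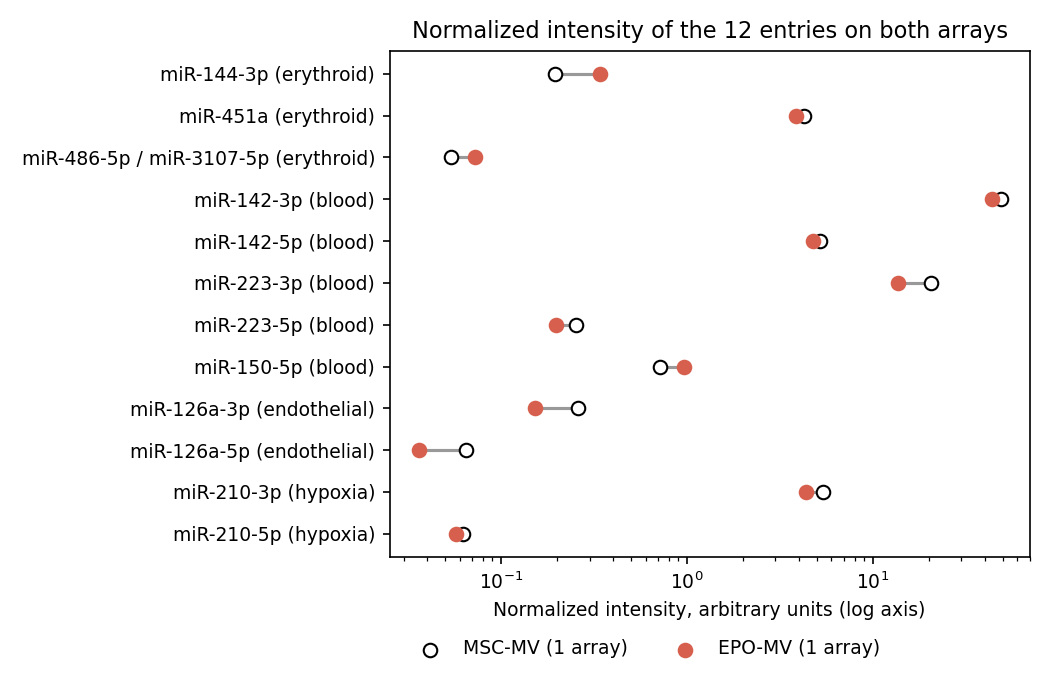
Normalized intensity (log axis, arbitrary units) of the 12 entries on the MSC-MV array (open circles) and the EPO-MV array (filled circles), with 1 array per group and no error bars; intensities are not comparable between entries. The widest gaps are those of miR-144-3p, higher in EPO-MVs, and of both arms of miR-126a, lower in EPO-MVs.

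The spread of ratios over all entries depended on intensity, so the entries were also read beside those of like intensity. The 831 entries were ordered by mean log2 intensity and divided into 4 intensity groups of near equal size. In the dimmest group 46.4% were higher and 15% were lower, and in the next 18.8% were higher and 3.37% were lower. The third group held 5.29% higher and 4.33% lower entries, and the brightest 0.962% higher and 7.69% lower ones. Of the 12 entries, 1 fell in the dimmest group, 2 in the second, 4 in the third and 5 in the brightest, so that 9 were in the upper intensity groups, where few entries passed the threshold upwards.

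**Figure D2:**
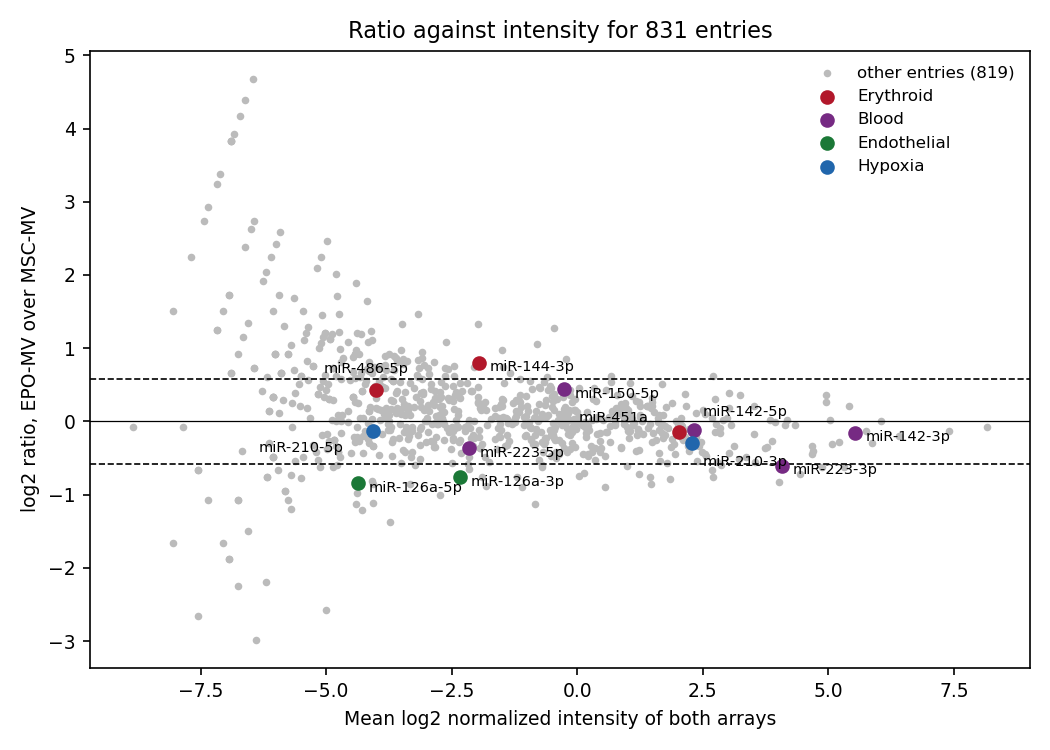
Log2 ratio of EPO-MV over MSC-MV (y axis) against the mean log2 normalized intensity of both arrays (x axis) for the 831 entries, with the 12 entries coloured by the tissue or response they are known for and dashed lines at 1.5-fold. The cloud widens at low intensity; miR-144-3p lies above the upper line, both miR-126a arms lie below the lower line and miR-223-3p lies just below it.

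Among the erythroid miRNAs, miR-144-3p was higher in EPO-MVs and its cluster partner miR-451a was not. The intensity of miR-144-3p, which is abundant in erythroid cells, was 0.340 in EPO-MVs (160 steps) and 0.195 in MSC-MVs (87 steps), a ratio of 1.75. In the third intensity group this ratio ranked 7 from the highest of 208. With a step taken from the higher value and added to the lower one, the ratio was 1.71, still past the threshold. Under the 6 other scalings of the arrays it stayed above 1.5, from 1.58 to 1.81.

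The intensity of miR-451a, which restrains Ywhaz in erythroid precursors, was 3.87 in EPO-MVs (1821 steps) and 4.28 in MSC-MVs (1915 steps), a ratio of 0.902. It lay below 1 under every one of the 6 scalings, at most at 0.978, and within 1.5-fold of 1 under all of them. The log2 ratio of miR-144-3p thus exceeded that of miR-451a by 0.95, although their hairpins are neighbours on the same strand. Whether this difference exceeds the error of the arrays was not tested, since there is no replicate. The entry of miR-486-5p, a miRNA of red cells and muscle, and miR-3107-5p had 0.0722 in EPO-MVs (34 steps) and 0.0537 in MSC-MVs (24 steps), a ratio of 1.34. It is dim, and a step against the difference brought its ratio to 1.25, while the other scalings gave 1.12 to 1.40.

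Among the miRNAs of white blood cells, the arms of miR-142 were close between the arrays. Intensities of miR-142-3p were 44.0 in EPO-MVs (20714 steps) and 48.9 in MSC-MVs (21839 steps), a ratio of 0.900. Those of miR-142-5p were 4.80 (2259 steps) and 5.21 (2328 steps), a ratio of 0.921. The arms differed by -0.03 on the log2 scale as deposited. Their direction was not settled, because quantile normalization and lowess put both arms at or above 1, up to 1.05 for miR-142-3p and 1.02 for miR-142-5p.

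In contrast, miR-223-3p, which limits neutrophil production and activity, had 13.6 in EPO-MVs (6415 steps) and 20.7 in MSC-MVs (9245 steps), a ratio of 0.659 or 1.52-fold lower. It was the only entry of the 12 in the brightest group to pass the threshold, with a rank of 14 from the lowest of 208. The call rested on the scaling, as it was lost in 4 of the 6 other scalings. The ratio was 0.677 after re-centring on the brighter entries, 0.683 with scaling to the 75th percentile, 0.753 with lowess and 0.783 with quantile normalization. All 6 kept it below 1. Its passenger arm miR-223-5p had 0.197 (93 steps) and 0.255 (114 steps), a ratio of 0.774, and stayed between 0.732 and 0.816 under the other scalings. Both arms of miR-223 were therefore on the same side of 1, with the -3p arm lower by 0.23 on the log2 scale as deposited. The order of the arms turned with quantile normalization (0.783 for -3p and 0.752 for -5p) and lowess (0.753 and 0.732).

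Of the lymphocyte miRNA miR-150-5p, which represses Myb, the intensity was 0.970 in EPO-MVs (457 steps) and 0.716 in MSC-MVs (320 steps). Its ratio of 1.36 stayed under the threshold, and the other scalings gave 1.31 to 1.41. It and miR-223-3p thus lay on opposite sides of 1 under all 6 scalings.

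As deposited, the endothelial miRNA showed the lowest ratios of the 12 entries, in both arms. With the pseudocount miR-223-3p was lowest instead, at 0.659. For mmu-miR-126a-3p, which sustains signalling of vascular endothelial growth factor by repressing Spred1, the intensity was 0.153 in EPO-MVs (72 steps) and 0.260 in MSC-MVs (116 steps). The ratio was 0.589, which is 1.70-fold lower, and it ranked 4 from the lowest of the 208 entries in the third intensity group. It stayed lower than the threshold under all 6 scalings, from 0.545 with quantile normalization to 0.663 with a pseudocount, and was 0.602 with a step against the difference.

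The other arm, miR-126a-5p, is dim. It had 0.0361 in EPO-MVs (17 steps) and 0.0649 in MSC-MVs (29 steps), a ratio of 0.556 or 1.80-fold lower, and ranked 21 from the lowest of 207 in the dimmest group. The call held in 5 of the 6 scalings and was lost at a ratio of 0.764 with the pseudocount of 0.0573, which is larger than the EPO-MV value and shrinks dim ratios by construction. With a step against the difference the ratio was 0.610. The log2 ratios of the arms differed by 0.08 as deposited. The -5p arm was the lower one except with the pseudocount and with a step against the difference. Arms of a hairpin hybridised to the same array are not replicates of the condition. In a preparation of vesicles, fewer vesicles that carry a miRNA and less of it per vesicle cannot be told apart.

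The hypoxia miRNA miR-210-3p, which represses the iron-sulphur cluster scaffold Iscu, had 4.38 in EPO-MVs (2061 steps) and 5.38 in MSC-MVs (2407 steps), a ratio of 0.813. It stayed within 1.5-fold under the other scalings, from 0.785 to 0.937. The passenger arm miR-210-5p had 0.0573 (27 steps) and 0.0626 (28 steps), a ratio of 0.915. Its values differed by 1 step before scaling, so at this resolution no difference was detectable for the -5p arm. The other scalings gave 0.745 to 0.956 for this arm. The order of the arms turned with quantile normalization (0.745 for -5p and 0.937 for -3p) and lowess (0.757 and 0.890).

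**Figure D3:**
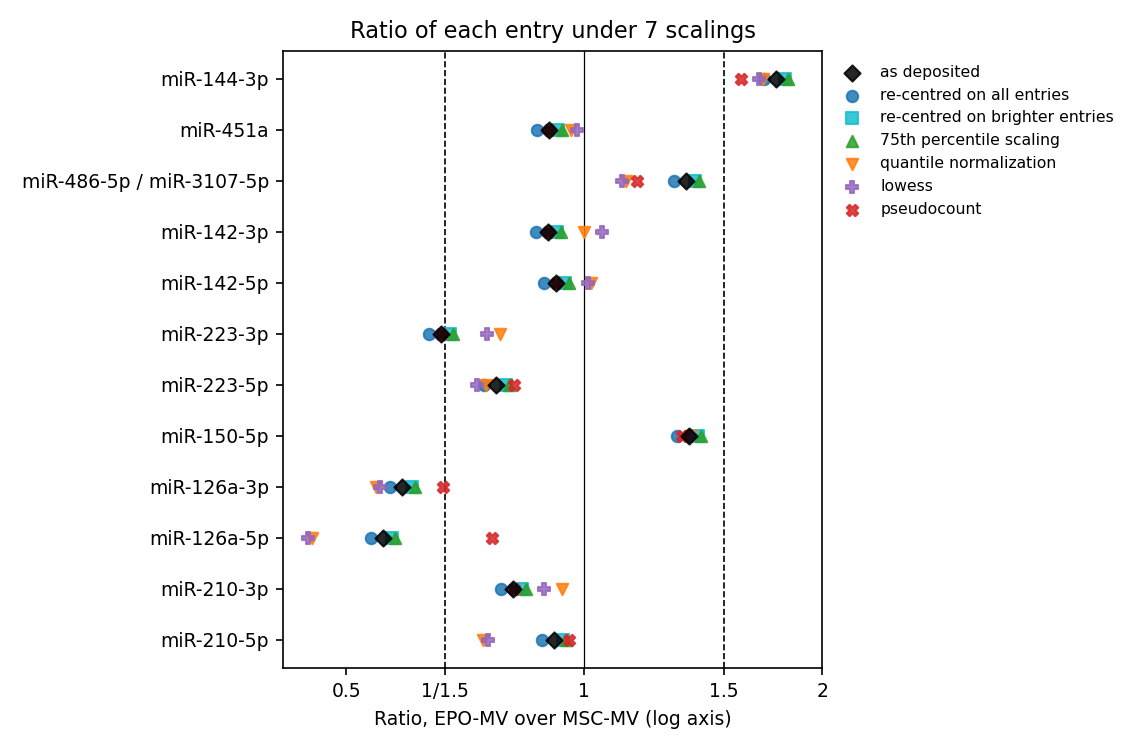
Ratio of EPO-MV over MSC-MV (log axis) for each of the 12 entries as deposited (black diamonds) and under 6 other scalings, with dashed lines at 1.5-fold in either direction. The points of miR-144-3p and miR-126a-3p stay outside the dashed lines, those of miR-223-3p and miR-126a-5p fall on both sides of the lower line, and those of the other 8 entries stay between the lines.

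A wider list of 20 miRNAs with roles in blood, endothelium or low oxygen was set beside the 12 entries, and all 20 were measured. In EPO-MVs 0 of them were higher and 4 lower, next to 17.8% and 7.58% of all entries. Most of the list is bright, as 17 of the 20 reached at least 60 steps on both arrays. Among all entries that bright, only 3.24% were higher and 5.4% lower. The median log2 ratio of the list was -0.29, or -0.18 with quantile normalization and -0.17 with lowess. The lower ones were miR-16-5p (ratio 0.605), which restrains the cell cycle, miR-146a-5p (0.591), which dampens NF-kB signalling, miR-191-5p (0.659), which falls as red cells mature, and miR-132-3p (0.475), at 2 and 4 steps. The inhibitors of Kit in erythroid precursors, miR-221-3p and miR-222-3p, had ratios of 0.823 and 0.736, within 1.5-fold. Counts of lower entries were 3 or 4 under every other scaling, with none higher.

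Marker miRNAs of several cell types were read beside the stated cell type. The stromal list shares miR-125b-5p with the list of 20. At least 60 steps on both arrays were reached by 10 of 10 stromal markers, 6 of the 7 blood markers, all of which are among the 12 entries, 1 of 6 epithelial, 1 of 2 muscle and 1 of 2 neural markers. The 2 endothelial markers, the arms of miR-126a, had 17 and 72 steps in EPO-MVs and 29 and 116 in MSC-MVs. The liver miRNA miR-122-5p had 8 and 7 steps, while the muscle miRNA miR-206-3p had 520 and 498 and the neural miRNA miR-124-3p had 99 and 73. Since no background values were available and probes differ in brightness, 60 steps is no limit of detection. These values do not settle which cell types the RNA came from.

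The stromal markers had ratios on the same side of 1 as miR-126a and miR-223. All 10 had a ratio below 1, from 0.563 to 0.873, with a median log2 ratio of -0.47. By at least 1.5-fold 3 of the 10 were lower, next to 7.58% of all entries and 5.4% of those with at least 60 steps on both arrays. The stromal count was between 1 (quantile normalization) and 4 (re-centring on all entries) under the other scalings. The stromal median was -0.31 with quantile normalization and -0.29 with lowess. Summed over the stromal markers, intensity was 257 in EPO-MVs and 333 in MSC-MVs, a ratio of 0.772, which the brightest probes dominate. The sums over all entries had a ratio of 0.912. Markers of other tissues were mixed. Of the 6 epithelial markers 3 were higher and 0 were lower, next to 17.8% and 7.58% of all entries. Their median log2 ratio was 0.36. Of these markers, miR-200c-3p and miR-141-3p fell in the dimmest intensity group, where 46.4% were higher, and miR-200b-3p in the second, with 18.8%. The ratios were 2.85 for miR-200c-3p, 1.90 for miR-141-3p and 1.50 for miR-200b-3p, against 1.10 for miR-205-5p, 0.959 for miR-203-3p and 0.712 for miR-429-3p, and quantile normalization and lowess each gave 2 higher and 1 lower. The neural miR-9-5p had a ratio of 1.90 and the muscle miR-206-3p of 0.991. The 4 markers past the threshold are dim, with 6 to 43 steps in MSC-MVs, and none passed 1.5-fold with the pseudocount. Ratios of the stromal markers were at or below 1 under every other scaling except lowess, where 9 of 10 were. Their part in the lower values of miR-126a and miR-223-3p was not tested. On the log2 scale of the deposited values miR-126a-3p (-0.76) and miR-126a-5p (-0.85) were below the stromal median, miR-223-3p (-0.60) was also below it, and the other 9 entries were above it. With quantile normalization and lowess miR-223-5p and miR-210-5p lay below it too, and with the pseudocount miR-126a-5p lay above it.

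**Figure D4:**
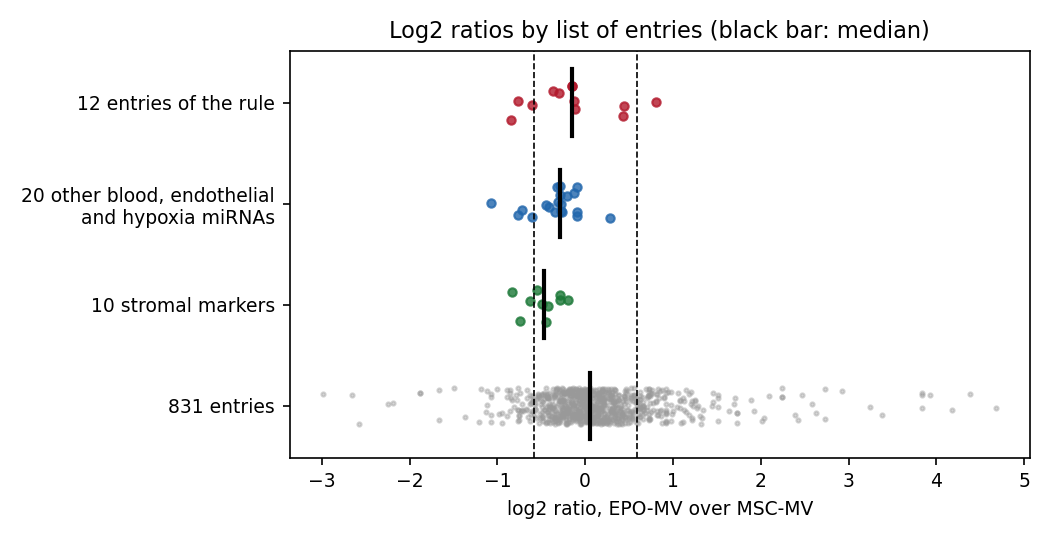
Log2 ratio of EPO-MV over MSC-MV (x axis) for the 12 entries, for 20 other miRNAs of blood, endothelium and low oxygen, for 10 stromal markers and for all 831 entries, 1 point per entry, with medians as black bars (-0.15, -0.29, -0.47 and 0.05) and dashed lines at 1.5-fold. Of the 3 short lists, only the 12 entries hold a point beyond the upper line, which is miR-144-3p.

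Of the entries outside the 12, those with values most like the brightest entry miR-142-3p over the 2 arrays were miR-24-3p, miR-1983 and miR-143-3p, at distances of 0.30, 0.32 and 0.46 in log2 units. Likeness over 2 arrays is a likeness of probe brightness as much as of response, and their ratios of 0.914, 1.16 and 0.648 beside 0.900 differed in direction.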

How the data were processed

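RNA of the MVs was labelled by the authors, hybridised to the miRCURY LNA Array (v.18.0), scanned with an Axon GenePix scanner and read in GenePix Pro 6.0. The deposited values are intensities on a linear scale, for which the authors averaged replicate spots and applied median normalization with a factor from miRNAs that reached an intensity of 30 on every array. The channel read and any background correction are not given in the sources used here. The 2 arrays hold 831 entries, all values being whole multiples of the smallest one within 0.01 of a step.

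Ratios were taken without a pseudocount or filter. Entries were matched by name; every matching entry is named, and the members and lists were chosen with earlier results of these data known. There were 14 other settings and 1 added after seeing the data (a step against the difference); 6 of them rescale the arrays, including lowess (span 0.4, 3 iterations) and a pseudocount of 0.0573, which is the 25th percentile of all values. The number of arrays limits the precision. The 1.5-fold counting was tested on simulated data without measurement error, which bears on the arithmetic and not on the accuracy of a call. Ratios and ranks were computed in Python 3.11.15 with numpy 2.4.6 and pandas 2.3.3. Lowess used statsmodels 0.14.6, quantile normalization used scipy 1.17.1, and plots were made with matplotlib 3.10.9. RefSeq tables of GRCm38.p6 gave names, positions and sequences.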

Additional observations from a re-analysis of the deposited data

How the results depend on the processing

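Of the 12 entries, 1 was higher and 3 were lower at 1.5-fold. At a threshold of 2-fold 0 were higher and 0 were lower, and at 1.2-fold 3 were higher and 5 were lower, as the threshold itself sets. Of all entries 8.06% were higher and 2.53% lower at 2-fold, and 33.5% and 21.9% at 1.2-fold. Under the other 12 settings and the added one, the counts stayed at 1 higher and at 2 or 3 lower. The shares of all entries moved more, to 3.49% higher and 3.01% lower with the pseudocount and 3.13% and 6.02% above the median intensity. The median log2 ratio of the 12 entries stayed negative, from -0.20 after re-centring on all entries to -0.08 with quantile normalization. Filters on dim entries (at least 30 or 60 steps on both arrays, or above the median intensity) each kept 9 entries with 1 higher and 2 lower, and left out the lower miR-126a-5p. No entry past 1.5-fold changed direction under the scalings. No background values were available here, so a dim entry has no limit of detection to be set against. No paired analysis was possible because each group had 1 array.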
